A study of Mus musculus with 12 samples.

Results

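The genes described here encode the constitutive proteasome of the mouse, together with its dedicated assembly chaperones and its activators. They were taken by symbol: every gene named Psma, Psmb, Psmc, Psmd, Psme, Psmf or Psmg followed by a number, without the interferon-inducible catalytic subunits Psmb8, Psmb9 and Psmb10, and with at least 10 counts in at least 3 libraries. Of the 55335 genes in the count table, 45 had such a symbol and 43 met the count minimum. The other two, Psma8 and Psmb11, known for their use in testis and thymus, had 0 counts in all 12 libraries. All 43 genes also passed the filter for testing, which left 14935 genes in all. By role, 7 genes encode the alpha ring and 7 the beta ring of the 20S core, 6 the ATPases of the 19S base, 3 the non-ATPase subunits of that base, 8 the 19S lid, 7 assembly chaperones, and 5 activators or the inhibitor.

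PolyA RNA was sequenced from PYMT-R221A, a mammary tumour cell line of the mouse that carries the polyoma middle T oncogene. There were 4 groups of 3 libraries, each labelled as biological replicates 1 to 3: control cells, which the series calls wildtype, cells treated with 40 µM KCC-07, cells transfected with a scramble siRNA, and cells transfected with an siRNA against Mbd2 (siMBD2). KCC-07 is named in the series title as a small-molecule inhibitor of the pathway of MBD2, a reader of methylated CpG sites. The vehicle of the control cells and the length of either treatment are not given in the sources used here, and all groups are from 1 line.

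The 26S proteasome degrades proteins that carry ubiquitin chains. Its barrel-shaped 20S core holds the proteolytic sites inside the beta rings, the alpha rings gate the entrance, and the 19S particle recognises ubiquitin, removes it and unfolds the substrate with a ring of ATPases. In mammalian cells the subunit genes are known to be raised together by the transcription factor NFE2L1, which binds antioxidant response elements when proteasome capacity falls short. Tumour cells with a high rate of protein synthesis are known to depend on this machinery.

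Promoter windows were read from RefSeq for 36 of the 43 genes (build GRCm38.p6, 250 bases before to 50 after each start, 300 bases in all). The core of the antioxidant response element, searched on both strands as TGACNNNGC, was found in 6 of these 36 genes (16.7%) and in 14.0% of all 27025 genes with a window. The genes were Psmb5, Psmb6, Psmc6, Psmd12, Psmd9 and Psme4. Stretches of 60 bases around 5 of these matches are shown, on the strand of the gene and with the match in capitals (where the capitals begin with GC, the match is on the other strand), because the windows place the element at different distances from the start: 47 and 9 bases before it in the catalytic genes Psmb5 and Psmb6, 31 bases before it in Psmd9, and 227 and 247 bases before it in Psmc6 and Psmd12.
Psmb5, chr14:54618008-54618067, minus strand: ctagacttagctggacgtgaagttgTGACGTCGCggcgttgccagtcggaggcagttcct
Psmb6, chr11:70525297-70525356, plus strand: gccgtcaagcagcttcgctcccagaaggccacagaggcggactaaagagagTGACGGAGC
Psmc6, chr14:45329574-45329633, plus strand: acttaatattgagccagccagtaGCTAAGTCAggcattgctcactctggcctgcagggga
Psmd12, chr11:107479278-107479337, plus strand: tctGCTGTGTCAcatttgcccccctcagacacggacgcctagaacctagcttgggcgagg
Psmd9, chr5:123228130-123228189, plus strand: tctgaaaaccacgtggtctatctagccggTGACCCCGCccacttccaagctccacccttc

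The CCAAT box (CCAAT) was found in 12 of the 36 genes (33.3%) against 41.1% of all genes, and the E-box CACGTG in 3 (8.33%), namely Psma4, Psmd9 and Psme3, against 8.09%. For Psmg1, the gene with the largest difference after KCC-07 (below), the 250 bases before the start held none of the 3 motifs. They are printed because Psmg1 was the 1 gene called after KCC-07, and a link of this sequence to the difference was not tested.
Psmg1, chr16:95990961-95991210, minus strand: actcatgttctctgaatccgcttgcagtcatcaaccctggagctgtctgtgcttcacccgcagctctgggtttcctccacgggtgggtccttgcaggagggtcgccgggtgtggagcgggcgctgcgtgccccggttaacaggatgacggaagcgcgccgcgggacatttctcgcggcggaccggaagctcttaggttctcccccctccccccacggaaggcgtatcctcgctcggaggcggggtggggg

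Each library held 25831299 to 33956792 counts, of which the 43 genes took 0.542 to 0.711%. Levels are given as CPM, the counts of a gene relative to the total of its library on a fixed common scale, adjusted between libraries by the trimmed mean of M values (TMM). Mbd2 itself stood at 72.5 to 83.2 CPM with scramble siRNA and at 30.6 to 35.7 with siMBD2 (log2 fold change -1.20, SE 0.09, adjusted p = 0.000197 by edgeR), and at 72.8 to 77.1 with KCC-07 against 72.9 to 76.5 in control. Replicate 3 stood apart from replicates 1 and 2 in every group: within a group the chi-square per degree of freedom over genes was 3.37 to 29.0 between replicates 1 and 2 and 21.7 to 133 between either and replicate 3. The mitochondrial share of counts was 2.70 to 3.90% in the 4 libraries of replicate 3 and 1.45 to 2.32% in the other 8. For the proteasome genes replicate 3 was the lowest of its group in 36 of 43 in control and 38 of 43 with KCC-07, but the highest in 30 of 43 with scramble siRNA and in 30 of 43 with siMBD2. Results are therefore also given without the 4 libraries of replicate 3.

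The epithelial markers Epcam, Cdh1, Krt8, Krt18, Krt19, Cldn3 and Cldn7 summed to 1144 to 1315 CPM in control and 1425 to 1486 with KCC-07. By the edgeR test 6 of the 7 rose with KCC-07 (3.58% of all genes did). Their sum was also high with scramble siRNA, at 1394 to 1481 CPM. In that group against control Cdh1 was called higher (log2 fold change 0.53, adjusted p = 0.0102 by edgeR) and Krt19 lower (-1.37, adjusted p = 0.0143 by edgeR). Over all genes 4.71% were called higher and 4.08% lower. The fibroblast or mesenchymal markers Vim, Col1a1, Col3a1, Pdgfra, Pdgfrb and Thy1 summed to 964 to 1186 CPM in control, 439 to 964 with KCC-07 and 979 to 1171 with scramble siRNA. With scramble siRNA against control 1 of the 4 tested, Pdgfrb, was called lower (log2 fold change -2.34, adjusted p = 0.00966 by edgeR). With KCC-07 0 of the 4 tested were called. With the replicate block described below 3 of the 4 (Vim, Col1a1 and Pdgfrb) were called lower (9.00% of all genes were). Thy1 was at 0 in all libraries. Endothelial markers summed to at most 6.62 CPM and leukocyte markers to at most 7.74 CPM, with Cdh5, Cd3e and Adgre1 at 0 in the control and KCC-07 libraries. The part of these shifts in the proteasome results was not tested, and in bulk RNA fewer cells of a type and less of an RNA per cell cannot be told apart.

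In control cells, per kb of coding transcript, the assembly chaperones had the lowest median level of the role groups and the beta ring the highest. On the scale of CPM per kb of coding transcript, the role medians were 164 for the beta ring, 126 for the alpha ring, 118 for the ATPases, 108 for the non-ATPase base, 90.0 for the lid, 67.3 for the activators and inhibitor and 30.3 for the chaperones. Psma7, an alpha subunit, had the highest level at 307 ± 51.4 (SD, n = 3), followed by the beta subunits Psmb4 (224 ± 33.7), Psmb3 (199 ± 36.2) and Psmb6 (194 ± 27.7), and the ranges of mean ± SD of these beta subunits overlapped. The alpha subunit Psma3 lay within the range of the chaperones on this scale, at 32.3 ± 7.89, with a coding transcript taken as 2846 bases. In CPM without length its control mean was 92.1, above every chaperone, of which Psmd5 was highest at 65.0. The lowest were the base chaperones Psmd5 (14.8 ± 0.54) and Psmd9 (16.7 ± 0.86). Among the catalytic subunits, Psmb6 (caspase-like site) and Psmb7 (trypsin-like site, 164 ± 30.3) overlapped within their SD, and Psmb5 (chymotrypsin-like site) was lower at 67.4 ± 8.24. The order depended on the length used. Per kb of all annotated exon bases the alpha ring had the highest role median at 83.7, before the ATPases at 72.9 and the beta ring at 67.4. On that scale Psmb4 ranked first and Psma7 ranked 7, while the chaperones remained the lowest role group at a median of 23.9.

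**Figure D1:**
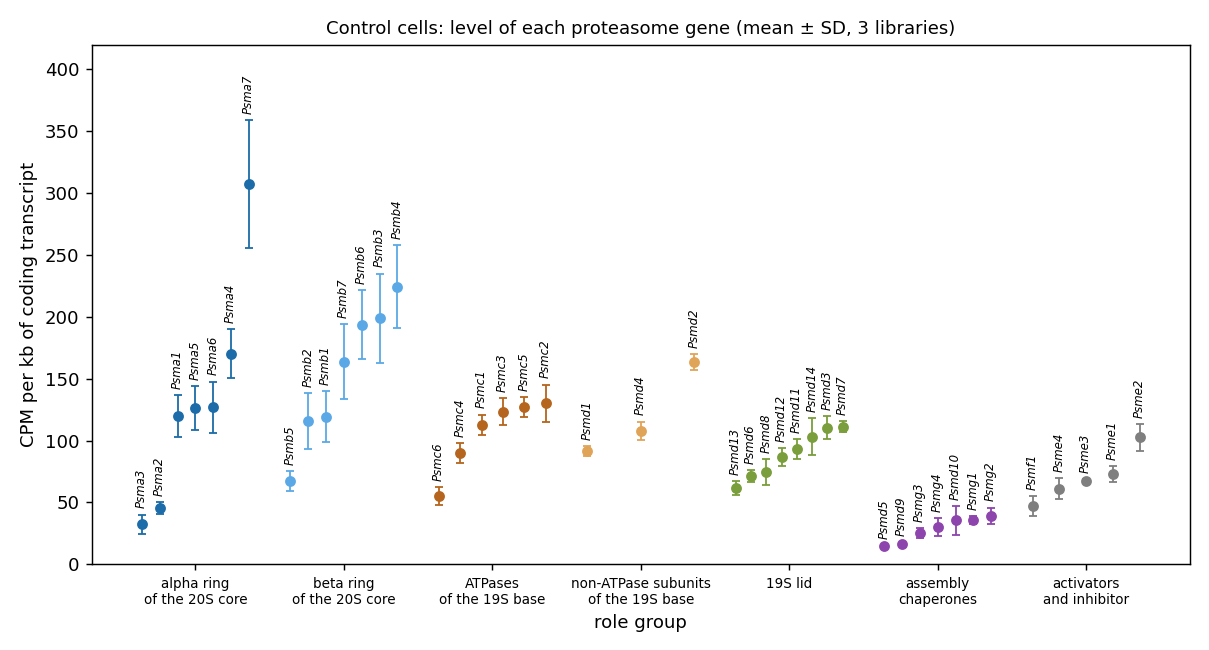
Level of each of the 43 proteasome genes in the 3 control libraries, in CPM per kb of coding transcript, arranged by role group and by level within it. Points are means and bars are SD (n = 3); Psma7 stands highest at 307 and the assembly chaperones lie at 14.8 to 39.3.

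The compound arm asked how the proteasome genes stood in cells treated with KCC-07. After KCC-07, 39 of the 43 genes had a log2 fold change below 0, where 48.2% of all genes tested did, and their median was -0.23 (a change of -14.7%) against a median of 0.02 over all genes. The differences were small and 1 gene passed the test alone: Psmg1, an assembly chaperone of the alpha ring, fell by 32.8%. No gene was called higher (3.58% of all genes were). In the same test (edgeR quasi-likelihood on 12 libraries, Benjamini-Hochberg adjusted p under 0.05 over 14935 genes) 2.08% of all genes were called lower and 5.65% in either direction, so 1 of 43 is close to the background. At an unadjusted p under 0.05, 14 of the 43 were lower and 0 higher. The share of all genes at that threshold was not counted, so this is not read as an excess.

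The labels' batch field gives the libraries of an arm shared biological replicate numbers, although the library names of the compound arm number replicate 3 as 4 and those of the siRNA arm do not. A fit with the replicate of each arm as a block called 16 of the 43 genes lower and 0 higher, where 9.00% of all genes were called lower, 12.8% higher and 21.8% in either direction. The 16 were all 7 alpha subunits, Psmb5, Psmc1, Psmc4, Psmd6, Psmd10, Psmg1, Psmg2, Psmg3 and Psme2. The same block fitted on the 6 libraries of this arm alone called 1 lower, Psmg1, where 0.564% of all genes were called lower. Within same-numbered pairs, the median log2 difference of the 43 genes was -0.30, -0.16 and -0.18 in pairs 1 to 3, with 37, 35 and 38 genes below 0, where 46.5%, 48.2% and 49.8% of all genes were. In all 3 pairs 30 genes were lower (23.0% of all genes were). Without the 4 libraries of replicate 3, edgeR called 21 lower and 1 higher (Psme4), where 10.5% and 15.1% of all genes were called, and the median was -0.22.

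By role, the alpha ring and the chaperones lay lowest and the activators stood at about 0. The median log2 fold change was -0.33 in the alpha ring (7 of 7 below 0), -0.24 in the beta ring (7 of 7), -0.22 in the ATPases (6 of 6), -0.11 in the non-ATPase base (3 of 3), -0.13 in the lid (7 of 8), -0.32 in the chaperones (6 of 7) and -0.01 in the activators and inhibitor (3 of 5). The 14 core genes together had a median of -0.27 and the 17 genes of the 19S particle one of -0.16. Whether the roles differ was not tested. In 5 genes all 3 KCC-07 libraries lay below all 3 control libraries, namely Psma2, Psma4, Psmd6, Psmg1 and Psmg2, and in 0 all lay above. Over all genes these shares were 10.6% and 12.3%, and the first is about the share seen here (5 of 43).

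**Figure D2:**
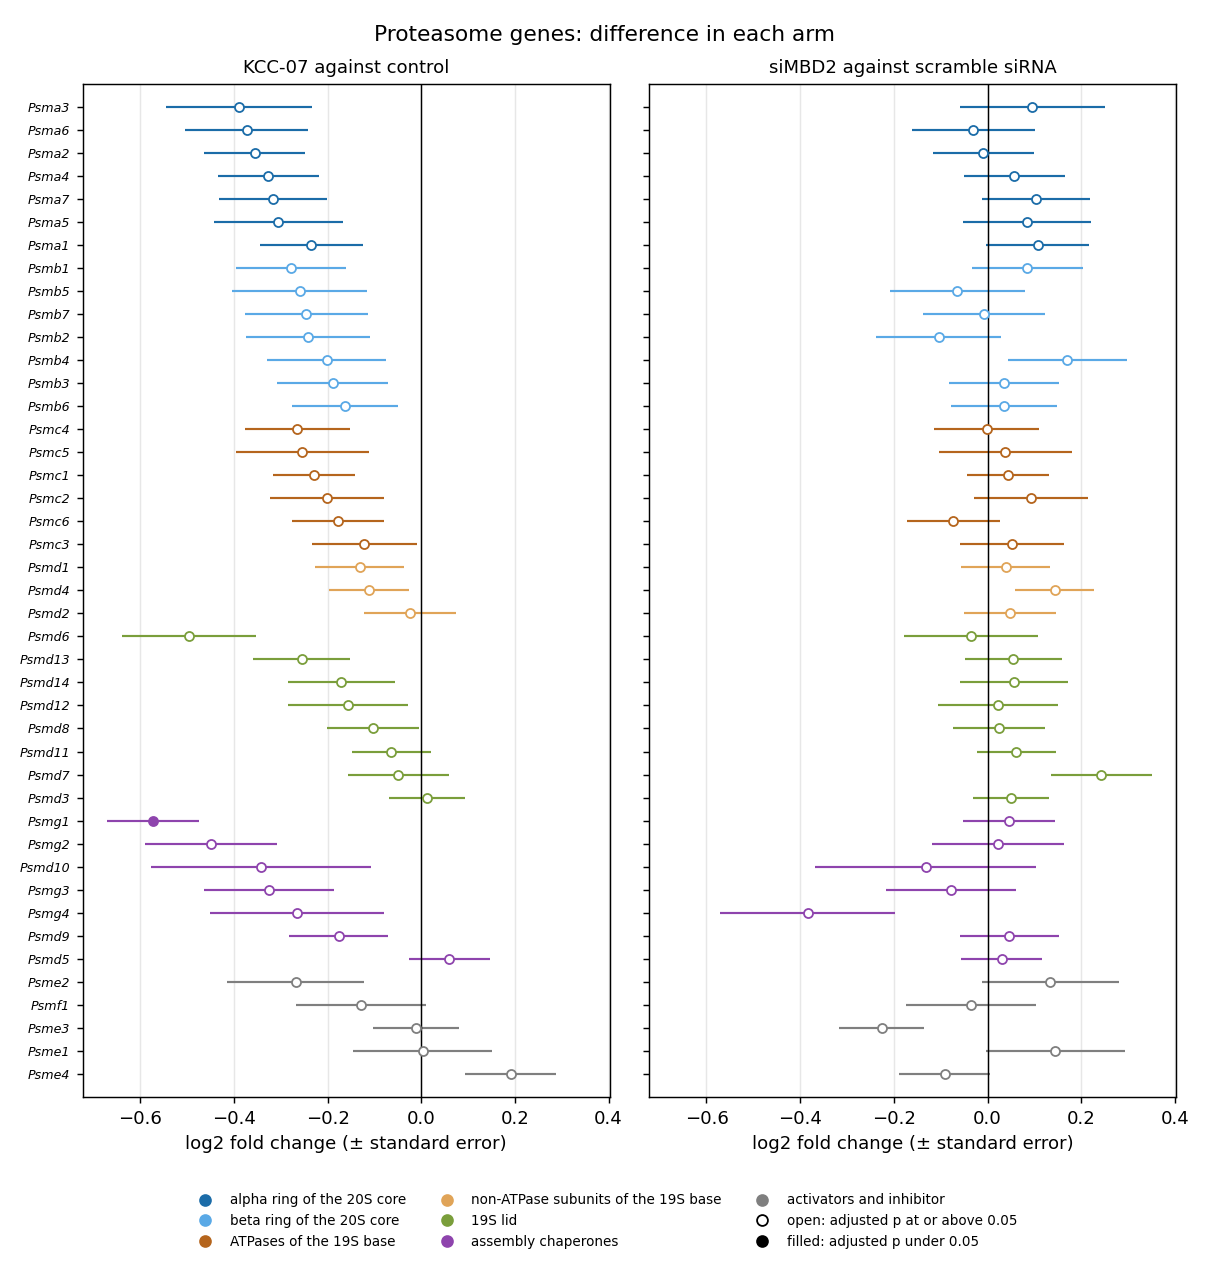
Log2 fold change (± standard error, edgeR) of each of the 43 proteasome genes for KCC-07 against control and for siMBD2 against scramble siRNA, coloured by role group. For KCC-07, 39 points lie left of 0 and Psmg1 at -0.57 is the 1 filled point, and for siMBD2 14 lie left of 0 and none is filled.

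Among the assembly chaperones, Psmg1 (chromosome 16, 95979933 to 95990960, minus strand, GRCm38), which pairs with Psmg2 to scaffold the alpha ring, had 39.0, 39.4 and 33.7 CPM in control replicates 1 to 3, 26.5, 26.3 and 22.5 with KCC-07, 32.5, 33.8 and 31.8 with scramble siRNA, and 32.8, 34.9 and 33.6 with siMBD2. Every KCC-07 library lay below every library of the other groups. The log2 fold change against control was -0.57 (SE 0.10, adjusted p = 0.00967 by edgeR, lower in 3 of 3 pairs). It stayed called with each control or KCC-07 library left out in turn (-0.64 to -0.50, highest adjusted p = 0.0355), with the block (0.00215) and in DESeq2, but edgeR on the 6 libraries of the comparison alone gave an adjusted p of 0.158.

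Psmg2, the partner of Psmg1, had 48.5, 41.8 and 34.4 CPM in control and 33.9, 32.6 and 24.9 with KCC-07. The groups did not overlap, though control replicate 3 and KCC-07 replicate 1 nearly met (log2 fold change -0.45, SE 0.14, adjusted p = 0.0818 by edgeR, with the block 0.00598). Psmg3 and Psmg4 form the second alpha-ring chaperone pair, and their log2 fold changes were -0.32 (SE 0.14) and -0.27 (SE 0.19), of which only the first was called with the block (adjusted p = 0.0250 by edgeR). Of the 3 chaperones of the ATPase ring, Psmd10, also known as gankyrin, had 63.3, 57.4 and 31.4 CPM in control and 45.1, 46.8 and 28.0 with KCC-07, so that replicate 3 was low in both groups. Its log2 fold change was -0.34 (SE 0.24, adjusted p = 0.391 by edgeR, with the block 0.0292). Psmd9 had a log2 fold change of -0.18 (SE 0.11). Psmd5 lay slightly above 0 at 0.06 (SE 0.09), with 66.4, 66.3 and 62.2 CPM in control and 61.9, 67.6 and 73.9 with KCC-07, and the groups overlapped.

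All 7 alpha subunits, which form the outer rings of the core, had log2 fold changes between -0.39 and -0.23 and were lower in all 3 pairs. Psma3 had 115, 90.8 and 70.3 CPM in control and 72.6, 78.2 and 60.1 with KCC-07. The groups overlapped, since control replicate 3 lay below KCC-07 replicates 1 and 2 (log2 fold change -0.39, SE 0.16, adjusted p = 0.151 by edgeR, with the block 0.0281). Psma1 had the smallest difference of the ring, with 162, 147 and 122 CPM in control and 127, 129 and 111 with KCC-07 (log2 fold change -0.23, SE 0.11, adjusted p = 0.209 by edgeR, with the block 0.0456). Psma4 had 217, 205 and 173 CPM in control and 167, 172 and 136 with KCC-07, with no overlap (log2 fold change -0.33, SE 0.11, adjusted p = 0.0922 by edgeR, with the block 0.0102). Psma2 had a log2 fold change of -0.36 (SE 0.11), also with no overlap. Its adjusted p was 0.0745 by edgeR and 0.0130 with the block.

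In the beta ring the 3 catalytic subunits were lower on average, and their groups overlapped. Psmb5 had 59.8, 68.3 and 53.6 CPM in control and 49.6, 58.7 and 43.4 with KCC-07 (log2 fold change -0.26, SE 0.14, adjusted p = 0.284 by edgeR, with the block 0.0268). Psmb6 had 174, 160 and 130 CPM in control and 144, 150 and 120 with KCC-07 (log2 fold change -0.16, SE 0.11). Psmb7 had 217, 203 and 150 CPM in control and 161, 179 and 140 with KCC-07 (log2 fold change -0.25, SE 0.13). In each of the 3 the control library of replicate 3 lay below 1 or both of the KCC-07 libraries of replicates 1 and 2. The largest difference of the ring was that of the structural subunit Psmb1, with 245, 214 and 172 CPM in control and 175, 182 and 163 with KCC-07 (log2 fold change -0.28, SE 0.12, adjusted p = 0.170 by edgeR, with the block 0.0545). Psmb5 was the only beta gene called with the block.

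The ATPases, which unfold the substrate and open the gate, had log2 fold changes between -0.26 and -0.12. Psmc4 had 137, 134 and 116 CPM in control and 113, 122 and 87.8 with KCC-07, overlapping in 1 library (log2 fold change -0.26, SE 0.11, adjusted p = 0.172 by edgeR, with the block 0.0279). Psmc3 had the smallest difference, with 221.3, 246 and 206 CPM in control and 222, 229 and 169 with KCC-07, so that the groups overlapped widely (log2 fold change -0.12, SE 0.11). Among the non-ATPase subunits of the base, Psmd1, a large scaffold, had 300, 274 and 282 CPM in control and 279, 282 and 220 with KCC-07 (log2 fold change -0.13, SE 0.10). Psmd2, its partner scaffold, had 483, 503 and 465 CPM in control and 507, 521 and 398 with KCC-07, where replicates 1 and 2 were higher than control and replicate 3 was the lowest of all (log2 fold change -0.02, SE 0.10). Psmd4, a ubiquitin receptor, had a log2 fold change of -0.11 (SE 0.08).

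The lid genes ranged from -0.50 to 0.01 on the log2 scale. Psmd6, a subunit of its horseshoe, had 105, 101 and 91.6 CPM in control, 75.3, 84.1 and 51.5 with KCC-07, 96.0, 94.0 and 97.6 with scramble siRNA and 90.5, 92.4 and 97.6 with siMBD2. The KCC-07 libraries lay below those of every other group, and replicate 3 was far the lowest of them. The log2 fold change against control was -0.50 (SE 0.14, adjusted p = 0.0641 by edgeR, with the block 0.0110), and -0.31 without that library (adjusted p = 0.0537). Psmd3, another horseshoe subunit, had 221.2, 259 and 231 CPM in control and 248, 247 and 223 with KCC-07 (log2 fold change 0.01, SE 0.08), with full overlap. The deubiquitinase Psmd14, which removes the ubiquitin chain at the entrance, had a log2 fold change of -0.17 (SE 0.11), and its partner Psmd7 one of -0.05 (SE 0.11).

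Among the activators, which cap the core in place of the 19S particle, Psme4 had the highest log2 fold change of the 43 genes. It had 356, 373 and 459 CPM in control and 431, 454 and 471 with KCC-07 (log2 fold change 0.19, SE 0.10, adjusted p = 0.242 by edgeR, higher in 3 of 3 pairs). The groups overlapped through control replicate 3 alone, and without that library edgeR called Psme4 higher (log2 fold change 0.31, adjusted p = 0.0222). In that fit 1187 of 15240 genes were called higher. With scramble siRNA Psme4 had similar levels, at 445, 448 and 432 CPM (log2 fold change against control 0.16, SE 0.10). Psme2, a subunit of the interferon-inducible cap, had 106, 104 and 86.9 CPM in control and 82.0, 87.4 and 76.9 with KCC-07 (log2 fold change -0.27, SE 0.15, adjusted p = 0.278 by edgeR, with the block 0.0402), while its partner Psme1 had a log2 fold change of 0.00 (SE 0.15). Psme3, the nuclear activator, had a log2 fold change of -0.01 (SE 0.09) and Psmf1, the inhibitor of the core, one of -0.13 (SE 0.14).

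**Figure D3:**
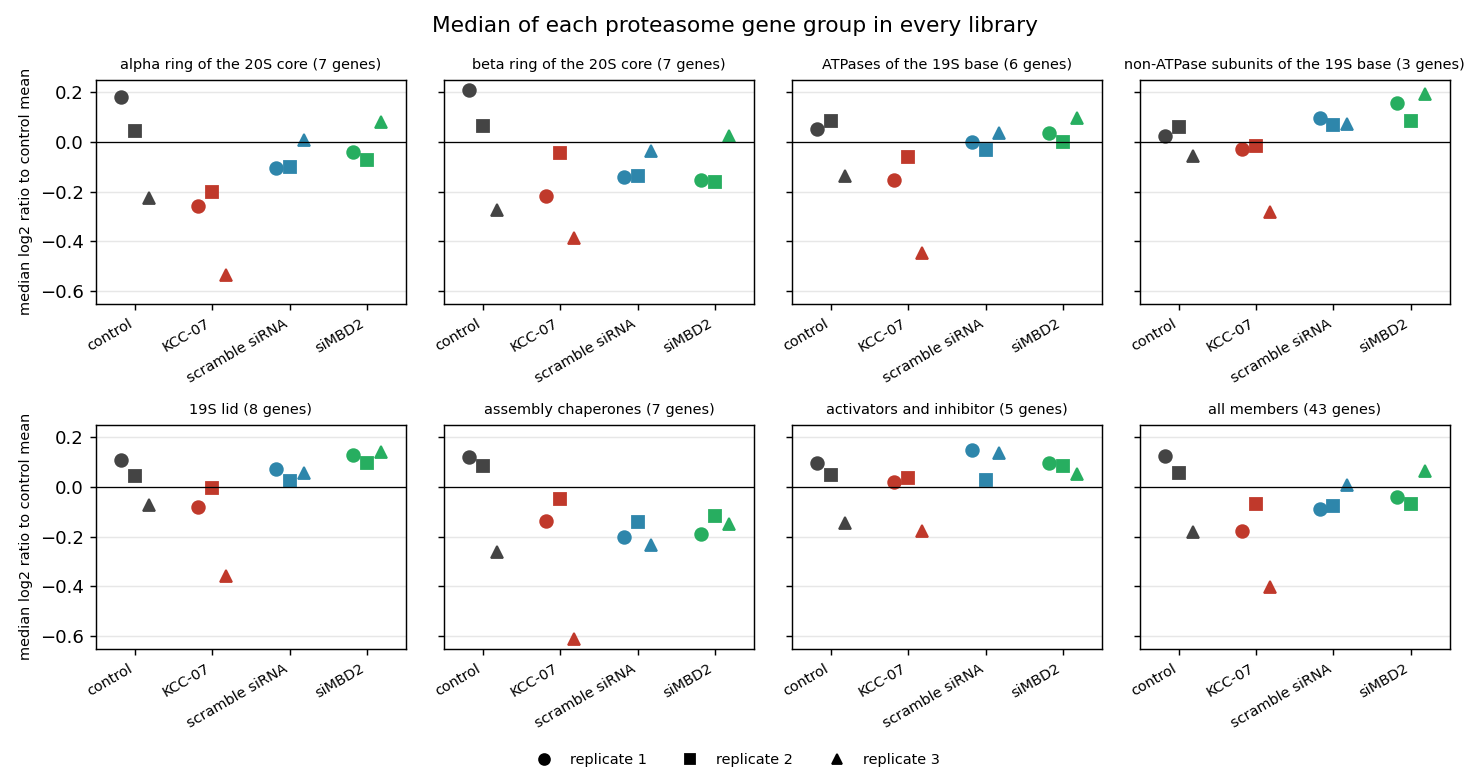
Median over the genes of each role group of the log2 ratio of a library's level to the mean of the control libraries, for every library. Symbols are replicates; replicate 3 (triangles) is the lowest control and the lowest KCC-07 library in each panel, and for all 43 genes the KCC-07 libraries lie at -0.18, -0.07 and -0.40.

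The medians of the role groups by library show how much of the spread belonged to the replicates. For the alpha ring the control libraries lay at 0.18, 0.04 and -0.22 and the KCC-07 libraries at -0.26, -0.20 and -0.54, so that KCC-07 replicate 2 stood just above control replicate 3. For the lid the values were 0.11, 0.04 and -0.07 in control and -0.08, -0.0041 and -0.36 with KCC-07. Summed over all 43 genes, the level was 6946, 6761 and 5943 CPM in control and 6042, 6354 and 5207 with KCC-07. The siRNA libraries lay in a narrower band, at 6540, 6471 and 6704 with scramble siRNA and 6622, 6582 and 7024 with siMBD2.

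Transcript length moved with the KCC-07 difference, and the proteasome transcripts are short: their median coding transcript was 1430 bases, against 2772 over the 12421 protein-coding genes tested with a length. Over those genes the log2 fold change was correlated with length (Spearman rho 0.26, across genes, which are not independent replicates), and over the 43 proteasome genes rho was 0.44. For transcripts under 1000 bases the median log2 fold change was -0.22 over all genes and -0.26 over 8 proteasome genes. From 1000 to 1500 bases it was -0.11 over all genes and -0.26 over 15 proteasome genes, and from 1500 to 2500 bases it was 0.00 and -0.16 (12 genes). From 2500 to 4000 bases it was 0.06 and -0.15 (6 genes), and from 4000 bases on it was 0.13 and 0.13 (2 genes, Psmd5 and Psme4). The 6 genes include Psma2 (-0.36) and Psma3 (-0.39), with coding transcripts taken as 2911 and 2846 bases. Those of the other alpha subunits had 914 (Psma7) to 1239 (Psma5) bases, so this bin depends on the transcript chosen. In the 4 bins under 4000 bases the median of the proteasome genes was thus the lower one, by least in the shortest bin. The part of length in the result was not tested.

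**Figure D4:**
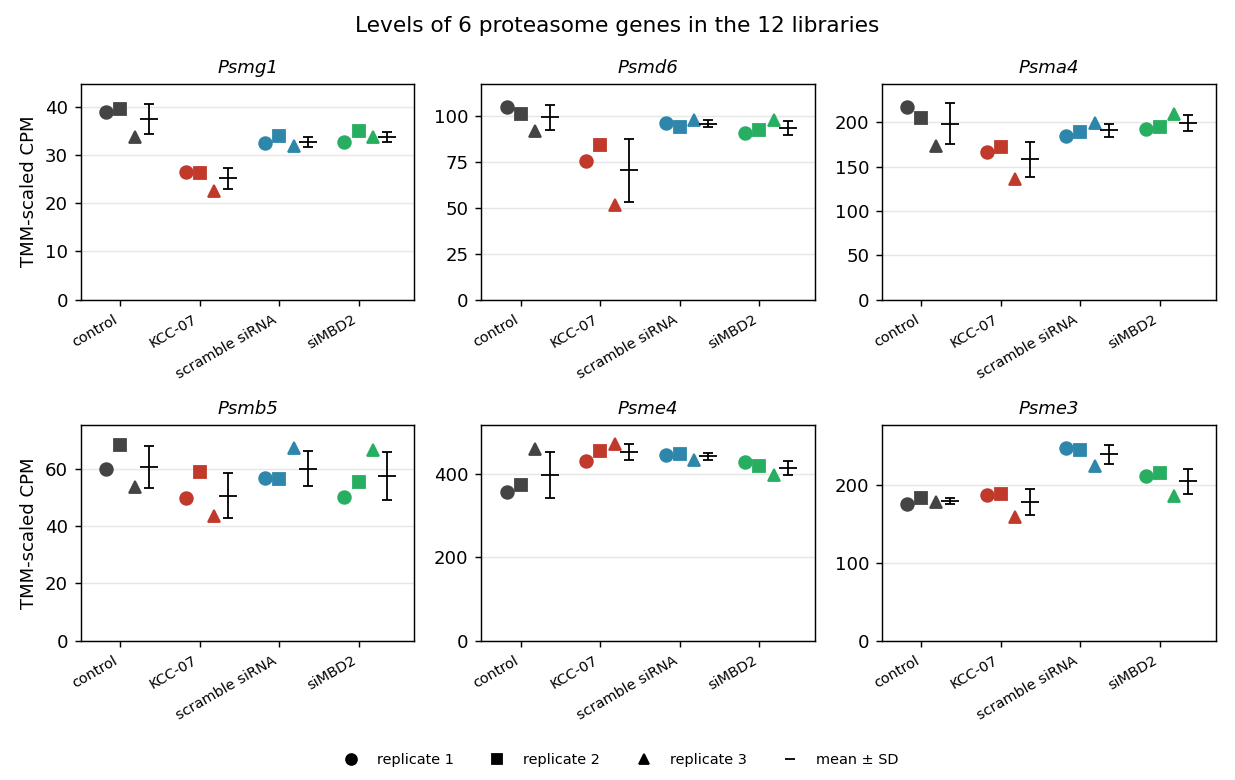
TMM-scaled CPM of Psmg1, Psmd6, Psma4, Psmb5, Psme4 and Psme3 in the 12 libraries, by group, with symbols for replicates and the mean ± SD (n = 3) beside each group. The KCC-07 libraries of Psmg1 (22.5 to 26.5 CPM) lie below those of every other group, and the scramble siRNA libraries of Psme3 (225 to 248 CPM) lie above those of every other group.

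The knockdown arm asked the same question after loss of Mbd2 RNA. With siMBD2 against scramble siRNA, 14 of the 43 genes had a log2 fold change below 0 (49.0% of all genes did), and the median was 0.04, against 0.00 over all genes. edgeR called 0 of the 43, and 0.0402% of all genes. At an unadjusted p under 0.05 there was 1 gene on each side, again without a count over all genes. DESeq2 and the block also called 0 (0.750% of all genes with the block). The siMBD2 libraries lay all below the scramble libraries in 4 genes (Psme3, Psmg4, Psme4 and Psmd10) and all above in 4 (Psmd7, Psmb4, Psmd9 and Psmd1), where 11.6% and 10.3% of all genes did. Fitted on the 6 libraries of this arm alone, edgeR called 1 gene higher (Psmd7) and 0 lower, where 0.433% and 0.823% of all genes were called. With the block as well it called 6 higher (Psma1, Psma7, Psmb4, Psmc2, Psmd4 and Psmd7) and 3 lower (Psme3, Psme4 and Psmg4), where 9.60% and 10.2% of all genes were called.

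Psmd7 had 184, 186 and 189 CPM with scramble siRNA and 211, 220 and 231 with siMBD2 (log2 fold change 0.24, SE 0.11, adjusted p = 0.915 by edgeR). Psmg4, the low chaperone, had 14.2, 14.9 and 13.8 CPM with scramble siRNA and 11.0, 11.2 and 10.7 with siMBD2 (log2 fold change -0.38, SE 0.19, adjusted p = 0.982 by edgeR). In both genes the groups did not overlap, and an exact permutation test of 3 against 3 libraries cannot give a two-sided p below 0.1. By role the medians lay between -0.03 (activators and inhibitor) and 0.08 (alpha ring). The length relation seen with KCC-07 was not seen here (rho -0.05 over all genes and 0.05 over the 43).

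The test of whether the 2 effects differ, (KCC-07 minus control) minus (siMBD2 minus scramble), called 0 of the 43 genes, where 0.656% of all genes were called, 0.174% lower and 0.482% higher. At an unadjusted p under 0.05, 9 were lower, again without a count over all genes. DESeq2 called 1 lower (Psmg1), where 214 of 14935 genes were called lower. Their median was -0.24, with 39 of 43 below 0 (49.7% of all genes). For Psmg1 the difference of effects was -0.62 (SE 0.14, adjusted p = 0.0714 by edgeR, over its alternatives 0.00265 in DESeq2 to 0.195, and 0.0129 with the block). The block called 3 genes lower, Psma4, Psmg1 and Psmg2, and 0 higher, where 2.24% and 4.65% of all genes were called. Without the 4 libraries of replicate 3 edgeR called 7 lower and 1 higher (Psme4), where 3.80% and 6.77% of all genes were called.

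Scramble siRNA against control, which shares its control libraries with the compound arm, gave values of other sign and size for several roles. edgeR called 1 of the 43 genes, Psme3, which rose by 33.4%, where 4.71% of all genes were called higher, 4.08% lower and 8.79% in either direction. A block on the replicate number across the arms, whose same-numbered libraries hardly deviated together (r over all genes 0.07, 0.02 and 0.13), called the same gene and 0 lower, where 7.39% of all genes were called higher and 6.42% lower. Psme3 had 176, 183 and 178 CPM in control, 187, 188 and 158 with KCC-07, 248, 246 and 225 with scramble siRNA and 212, 216 and 186 with siMBD2. The scramble libraries lay above every other library (log2 fold change 0.42, SE 0.09, adjusted p = 0.0199 by edgeR). The call was lost when control replicate 1 or 2 or scramble replicate 1 or 2 was left out (highest adjusted p = 0.0905).

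The median over the 43 genes was -0.05 in that comparison, with 30 below 0 (53.1% of all genes). The median turned to 0.02 without control replicate 1. Without the 4 libraries of replicate 3 edgeR called 3 higher and 18 lower, where 21.6% and 19.6% of all genes were called, with a median of -0.17. Side by side, the alpha ring had a median of -0.33 with KCC-07 and -0.10 with scramble siRNA, both against the same control libraries. The beta ring had -0.24 and -0.13, the ATPases -0.22 and 0.00, the lid -0.13 and 0.05, and the chaperones -0.32 and -0.19. Length moved with this comparison too (rho 0.29 over all genes and 0.41 over the 43).

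Of the other genes of the pathway, 31 were tested in 5 lists, and with KCC-07 edgeR called 1 of them, higher. Over all genes 3.58% were called higher and 5.65% in either direction, so 1 of 31 is close to the background. Zfand2a, a stress-inducible proteasome-bound protein, had 36.5, 39.1 and 30.1 CPM in control, 54.5, 56.6 and 82.1 with KCC-07, 52.8, 48.2 and 47.4 with scramble siRNA and 43.3, 43.9 and 44.8 with siMBD2. It rose with KCC-07 in 3 of 3 pairs without overlap (log2 fold change 0.87, SE 0.15, adjusted p = 0.00991 by edgeR). Of the 12 proteasome-bound enzymes and shuttles it was the only one called in that comparison, and 9 of the 12 lay below 0.

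Among 6 genes for NFE2L1 and its processing, 0 were called with KCC-07 and 3 were called higher with the block (12.8% of all genes were): Nfe2l1, its activating protease Ddi2, and Nploc4, a cofactor of the VCP segregase. For Ddi2 the log2 fold change was 0.29 with KCC-07 and 0.61 with scramble siRNA, and for Nploc4 it was 0.24 and 0.45, against the same control libraries. Nfe2l1 had 283, 428 and 226 CPM in control and 490, 475 and 416 with KCC-07 (log2 fold change 0.56, SE 0.18, adjusted p = 0.0858 by edgeR, with the block 0.0156). The groups overlapped through control replicate 2 alone. The 6 genes with the antioxidant response element core in their window had log2 fold changes of -0.26 (Psmb5), -0.16 (Psmb6), -0.18 (Psmc6), -0.16 (Psmd12), -0.18 (Psmd9) and 0.19 (Psme4), beside the median of -0.23 over all 43.

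The 4 subunits and assembly factors outside the symbol rule, Adrm1, Sem1, Pomp and Akirin2, were all below 0 with KCC-07 (median -0.27) and 0 were called. The block called Pomp and Sem1 lower, where 9.00% of all genes were called lower. Pomp, the maturation factor of the core, had 104, 112 and 92.0 CPM in control and 77.3, 83.6 and 81.7 with KCC-07, without overlap (log2 fold change -0.35, SE 0.10, adjusted p = 0.0715 by edgeR, with the block 0.0229). Of 6 genes for ubiquitin and its activating enzymes 0 were called, and the block called 1 lower (9.00% of all genes were), the fusion gene Rps27a. The immunoproteasome genes Psmb8, Psmb9 and Psmb10 were not called in any comparison, with or without the block. With siMBD2 0 of the 31 genes were called, and with scramble siRNA against control 5 rose (4.71% of all genes did): Adrm1, Ubqln4, Ddi2, Nploc4 and Uba6. In that comparison the block across the arms also called Sem1 lower (adjusted p = 0.0442 by edgeR), where 6.42% of all genes were.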

How the data were processed

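Gene-level read counts of 12 libraries were analysed as the authors deposited them. Per the submitters' processing notes, DRAGEN, DESeq2 1.44.0 and the builds mm10 and GRCm38.p6 were used. The roles of these tools, the annotation, strand setting and treatment of multi-mapped reads are not given in the sources used here, so the 9 genes with a near-identical copy (Psma3, Psma4, Psma5, Psmb3, Psmb5, Psmc1, Psmd2, Psmd11, Psme2) and the 9 with an exon on the opposite strand of another gene (Psma4, Psma5, Psmb7, Psmc3, Psmd1, Psmd3, Psmd9, Psmd13, Psme1) are uncertain.

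The test was edgeR 4.0.16 quasi-likelihood (R 4.3.3), with TMM scaling, filterByExpr (minimum count 10, minimum total 15), 1 mean per group and 8 residual degrees of freedom. Adjusted p-values are Benjamini-Hochberg over all genes tested, with a threshold of 0.05. They weigh a difference against the spread between these biological replicates of 1 line, estimated jointly over the groups in the fit. The batch label gives the same biological replicate number to libraries of an arm, and same-numbered libraries deviated together (r over all genes 0.27, 0.28 and 0.48 in the compound arm, 0.09, 0.15 and 0.42 in the siRNA arm). The block was the replicate within each arm, and for scramble against control the replicate number across arms, which left 4 and 6 residual degrees of freedom. No 2 libraries were identical. The fitting code was tested on simulated data.

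Alternatives were DESeq2 1.42.0, its size factors, other filters, fits on 6 libraries, the block, and leaving out libraries. The genes, role groups and lists were chosen with earlier results of these data known. Every gene of the set may be named. Values per library are given for genes past the threshold, the catalytic subunits, and the highest and lowest KCC-07 log2 fold change in each role. Psma2, Psma4, Psmg2, Psmd7, Psmg4, Psmd10, Nfe2l1, Pomp, Psmb8, Psmb9 and Psmb10 were added after their values were seen. The value of 1 gene of the ubiquitin list is not reported here.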

Additional observations from a re-analysis of the deposited data

How the results depend on the processing

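Counts of genes called were sensitive to how the spread was modelled, while the median after KCC-07 stayed below 0 in the alternatives run. Several single genes near 0 changed sign between them, such as Psmc3 (-0.20 to 0.01), Psmd2 (-0.09 to 0.09) and Psmd7 (-0.14 to 0.08). For KCC-07 against control the count lower was 1 in the reported fit, where 310 of all 14935 genes were called lower. DESeq2 called 5 (Psma2, Psma4, Psmd6, Psmg1 and Psmg2), where 789 of 14935 genes were called lower. With no filter on low counts the count was 2 (Psmd6 and Psmg1), beside 261 of 26825 genes. On the 6 libraries of the comparison it was 0 (0 of 14531 genes). On those with the replicate block it was 1 (Psmg1), beside 82 of 14531 genes. The replicate block on 12 libraries gave 16, beside 1344 of 14935 genes. Without the 4 libraries of replicate 3 it was 21, beside 1572 of 14980 genes. That fit also called 1 higher, beside 2260 of 14980 genes. With 1 library left out in turn the count was 1 to 15 lower and 0 to 1 higher. The 15 lower and 1 higher came without control replicate 3, beside 925 lower and 1187 higher of 15240 genes. The median log2 fold change was -0.30 to -0.14, with 35 to 41 genes below 0. For siMBD2 against scramble, 1 higher was called on 6 libraries, beside 61 of 14097 genes. With the replicate block there it was 6 higher and 3 lower, beside 1353 higher and 1437 lower of 14097 genes. For scramble against control, DESeq2 called 3 higher (Psmd3, Psmd11 and Psme3), where 1232 of 14935 genes were called higher. On 6 libraries with the block 0 were called, beside 154 higher and 157 lower of 14334 genes. At an adjusted p under 0.01, 0 were called in the reported fit. At that threshold DESeq2 and the block across the arms each called 1 higher, and the fit without replicate 3 called 2 higher and 5 lower. The shares of all genes at 0.01 were not counted. At 0.05, leaving out 1 library gave 0 to 2 higher, 0 to 4 lower and a median of -0.14 to 0.02. The 2 higher and 4 lower came without control replicate 3, beside 1664 higher and 1446 lower of 15240 genes. Leaving out replicate 3 gave 3 higher and 18 lower, beside 3231 higher and 2933 lower of 14980 genes. For the difference of effects, DESeq2 called 1 lower (Psmg1), beside 214 of 14935 genes, and the block 3, beside 335 of 14935. Leaving out 1 library gave 0 to 2 lower (median -0.32 to -0.14), the 2 without control replicate 3, beside 88 of 15240 genes. Leaving out replicate 3 gave 7 lower and 1 higher, beside 569 lower and 1014 higher of 14980 genes. The cause of these changes was not tested. The pairing by replicate changed no call of a proteasome gene other than those given in the report. At 25831299 to 33956792 counts a library, differences between replicates exceeded counting error, so the 3 libraries a group set the precision.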
